A study of Gallus gallus with 12 samples.

Results

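Transcripts of embryonic red blood cells (eRBC) were compared with those of HD3 erythroblasts, both from chicken, in 6 of the 12 RNA-seq samples of the series. The 6 samples were chosen by cell type alone. The 3 eRBC samples are primary red blood cells taken at embryonic day 10, and the 3 HD3 samples are cultures of a chicken erythroblast line. The labels give both as wild type. HD3 cells were grown in DMEM with 10% fetal bovine serum and 2% chicken serum, while no culture is given for the primary cells. RNA came from a TRIzol extraction, and 1 µg went into each stranded, ribosomal-RNA-depleted library. HD3 is a single line, transformed by avian erythroblastosis virus, and the labels do not say whether an eRBC sample is 1 embryo or a pool, or whether replicates are separate cultures. The p-values therefore measure only the spread between these samples, which may be technical.

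Birds, unlike mammals, have red blood cells with a nucleus. As an erythroblast matures it stops dividing, its chromatin condenses, its total RNA declines, and the remaining message becomes dominated by the products a circulating cell needs, above all globin. Blood of the chick embryo at this stage holds red cells of the primitive and the definitive lineage. The comparison thus sets a circulating population against a precursor that proliferates in culture. The title of the series names RNA polymerase II pausing and chromatin organization in erythrocytes. In bulk samples of this kind, fewer cells of a type and less RNA per cell cannot be told apart.

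Values are FPKM, fragment counts divided by gene length and library size, which the authors scaled to cell number, and they are called scaled FPKM here. The factor used for the scaling is not stated, so a difference per cell between the cell types includes any error in it, and the spread between replicates does not. Genes are given by Ensembl IDs that the files do not pair with names. Globin genes and other markers of red cells could therefore not be looked up, and the labels were not checked against them. Of the genes, 2 that were higher and 2 that were lower are given by ID, and others by their length as recovered from the values. Recovered lengths are lower estimates, and so are the read numbers recovered with them.

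The eRBC list held 1354 genes and that of HD3 held 10303. Together they named 10339 genes, of which 1318 stood in both tables, 36 in the eRBC table alone and 8985 in the HD3 table alone. The genes in both made up 97.3% of the eRBC list and 12.8% of the HD3 list. Each list stops at a mean of 0.3, so a gene missing from a table was taken as below 0.3 and not as 0. The cutoff stands for different depths in the RNA itself. It corresponds to an unscaled FPKM of at most 27.1 in eRBC and of at most 1.75 in HD3 on the assumption of 1 common factor per cell type. Recovered read totals over the listed genes ranged from 6454390 to 17808106 in the eRBC libraries and from 9051843 to 19379161 in the HD3 libraries. The median gene of both tables rested on 564.5 to 2502.5 reads in the eRBC libraries and on 1086.5 to 1922.5 in the HD3 libraries.

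In both cell types replicate 1 stood apart from the other two. Of the 1318 genes in both tables, 23.7% and 16.8% differed at least 2-fold between eRBC replicate 1 and replicates 2 and 3, against 0.152% between replicates 2 and 3. In HD3 the shares were 25.4% and 23.8% for replicate 1 and 0.0759% for replicates 2 and 3. Both libraries numbered 1 were also the shallowest of their cell type. Results are given with all libraries, and without both libraries numbered 1 where stated, an alternative chosen after seeing the data.

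Embryonic red blood cells held a few genes far above the level of HD3 erythroblasts, while nearly all other shared genes were lower per cell. Of the 1268 genes tested with limma (listed in both tables, mean of at least 1 over the 6 samples), 12 were higher in eRBC and 1184 were lower, with a Benjamini-Hochberg adjusted p under 0.05 and a change of 1 or more on the log2(scaled FPKM + 1) scale. These are 0.946% and 93.4% of the genes tested, or 94.3% in either direction. Of the genes tested, 71.8% had an eRBC mean under 1 and so passed the filter through HD3, against 4 genes with an HD3 mean under 1, which raises the share that is lower. Without the filter, 12 of the 1318 shared genes were higher and 1185 (89.9%) were lower. The values of the 3 eRBC and 3 HD3 samples did not overlap for any of the 12 higher genes, nor for 1177 of the 1184 lower ones. Overlap was counted only among genes called on these same values, so these counts lend the calls no separate support. Of the 72 genes not called, 71 had an absolute log2 fold change under 1. Without both libraries numbered 1, the same 12 genes were higher and 1156 genes were lower. The split rests on the scaling per cell. With the sums of all samples made equal 47 genes were higher and 706 lower, and with the medians made equal 245 were higher and 245 lower. Equal medians put the split near even by construction.

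On the log2(scaled FPKM + 1) scale the largest increase among the shared genes was that of ENSGALG00000047152, with a recovered length of 745 bp, followed closely by ENSGALG00000028273. With a pseudocount of 0.1 or 0.3 their order was the reverse. Its scaled FPKM was 2613, 2364 and 2649 in eRBC replicates 1 to 3, against 9.04, 11.2 and 10.9 in HD3 replicates 1 to 3. The 3 eRBC samples lay close together and far above all 3 HD3 samples. The log2 fold change was 7.81 (SE 0.308, limma adjusted p = 4.08e-07). On the scaled values its ratio of means was 245. ENSGALG00000047152 ranked 3 among the genes of eRBC and 1206 among those of HD3. It took 16.6% ± 2.34 (SD, n = 3) of the summed scaled FPKM in eRBC and 0.00878% ± 0.000773 (SD, n = 3) in HD3. The cell-number factor cancels in this share, though the cutoff on scaled values sets which genes are summed.

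ENSGALG00000028273, of 576 bp, was at 785, 526 and 562 in eRBC replicates 1 to 3, against 1.68, 1.89 and 1.93 in HD3 replicates 1 to 3. The groups lay far apart, and the HD3 values rested on 51, 121 and 126 reads. Its log2 fold change was 7.76 (SE 0.277, limma adjusted p = 4.08e-07). On the scaled values themselves the ratio of the means was 341, more than the fold change tells, since the added 1 lowers the change of genes that are low in one cell type. ENSGALG00000028273 ranked 5 in eRBC and 6279 in HD3.

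The next higher genes were again short and abundant in eRBC. A gene of 546 bp had a scaled FPKM of 2167, 2804 and 2488 in eRBC, against 12.8, 30.9 and 36.1 in HD3, a ratio of means of 93.5. A gene of 597 bp had 4222, 2960 and 3291 in eRBC, against 37.5, 54.4 and 64.6 in HD3, a ratio of 66.9. A gene of 536 bp had 55.9, 81.5 and 83.0 in eRBC, against 0.424, 0.452 and 0.379 in HD3, a ratio of 176. These 5 genes, picked as higher on these same values, lay between 536 and 745 bp and had a log2 fold change of at least 5. Together they took 53.5%, 62.1% and 64.6% of the summed scaled FPKM in eRBC replicates 1 to 3, against 0.0654%, 0.0757% and 0.0848% in HD3 replicates 1 to 3. A gene of 669 bp followed, with 17.2, 16.8 and 15.8 in eRBC and 0.396, 0.698 and 0.714 in HD3, the latter from 14, 52 and 54 reads.

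**Figure D1:**
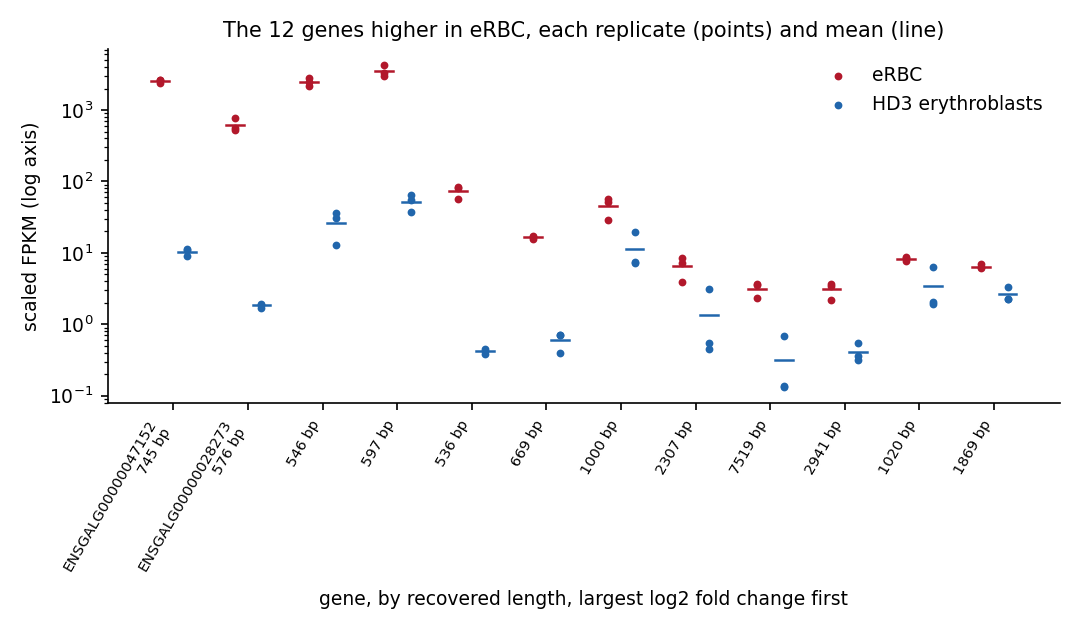
Scaled FPKM (log axis) of the 12 genes higher in eRBC, with each replicate as a point and the mean as a line, eRBC in red left of HD3 in blue, ordered by log2 fold change. The 3 eRBC points lie above the 3 HD3 points for every gene, and the 6 genes on the left, of 536 to 745 bp, show the widest gaps.

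The other 6 higher genes were longer, at 1000 to 7519 bp, and changed less, with ratios of means between 2.39 and 9.81. In several of them HD3 replicate 1 was well above the other HD3 replicates. A gene of 1000 bp had 28.6, 56.7 and 52.0 in eRBC, against 19.8, 7.18 and 7.35 in HD3. A gene of 2307 bp had 3.85, 8.57 and 7.17 in eRBC, against 3.08, 0.545 and 0.456 in HD3. In both, the lowest eRBC value and the highest HD3 value were those of replicate 1, and they did not cross. The smallest of the 12 differences was that of a gene of 1869 bp, with 6.29, 6.88 and 6.06 in eRBC and 3.32, 2.24 and 2.28 in HD3, a log2 fold change of 1.05. When HD3 replicate 2 or replicate 3 was left out, 10 of the 12 genes were called.

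The 12 genes summed to 9307 ± 550 scaled FPKM in eRBC and to 112 ± 15.8 in HD3 (SD, n = 3 each), a ratio of 83.4. They were picked as higher on these same values, so the direction of this ratio and of their shares follows from the choice. Leaving them out also lowers the eRBC sum of the other genes. The other genes in both tables summed to 6063 ± 2019 in eRBC and to 83645 ± 25591 in HD3 (SD, n = 3 each), which was 13.8-fold lower in eRBC. Over all 1318 genes the sums were 15370 ± 2535 in eRBC and 83757 ± 25605 in HD3 (SD, n = 3 each), a 5.45-fold lower sum in eRBC. All 3 eRBC sums lay below all 3 HD3 sums, with a two-sided exact permutation p of 0.1, the smallest that 3 samples against 3 allow. The sums are of scaled values and so include the cell-number factor, which exchanging samples cannot test. The 12 genes thus made up 54.2%, 63.5% and 66.0% of the shared-gene sum in eRBC replicates 1 to 3, against 0.176%, 0.116% and 0.127% in HD3. Measured by recovered reads, they took 56.3%, 53.9% and 56.3% of the reads on listed genes in eRBC and 0.0490%, 0.0444% and 0.0497% in HD3. Such reads are not divided by length, but they were computed with the recovered lengths.

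Transcript signal of the shared genes was held by fewer genes in eRBC, most clearly at 90% of the sum. Over the genes in both tables, the 5 highest genes of a sample held 84.7%, 82.9% and 83.4% of the sum in eRBC replicates 1 to 3, against 35.9%, 52.7% and 53.7% in HD3 replicates 1 to 3. In eRBC 2, 3 and 3 genes were enough for 50% of the sum, against 23, 4 and 4 in HD3, so at 50% replicates 2 and 3 differed little. For 90% of the sum 9, 40 and 34 genes were needed in eRBC and 484, 215 and 199 in HD3. By mean level, a gene of 329 bp ranked 1 in eRBC and 1 in HD3. It took 23.3% ± 6.72 of the whole sum in eRBC and 23.3% ± 9.53 in HD3 (SD, n = 3 each). Its values were 5705, 2884 and 2593 in eRBC, against 11533, 36827 and 39362 in HD3. Per cell it was thus lower in all 3 eRBC samples, with a log2 fold change of -2.87 (SE 0.586, limma adjusted p = 0.00172). The replicates numbered 1 were the high one in eRBC and the low one in HD3, and the mean shares include them. In eRBC replicates 2 and 3 the gene of 597 bp stood above it, at 2960 and 3291.

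**Figure D2:**
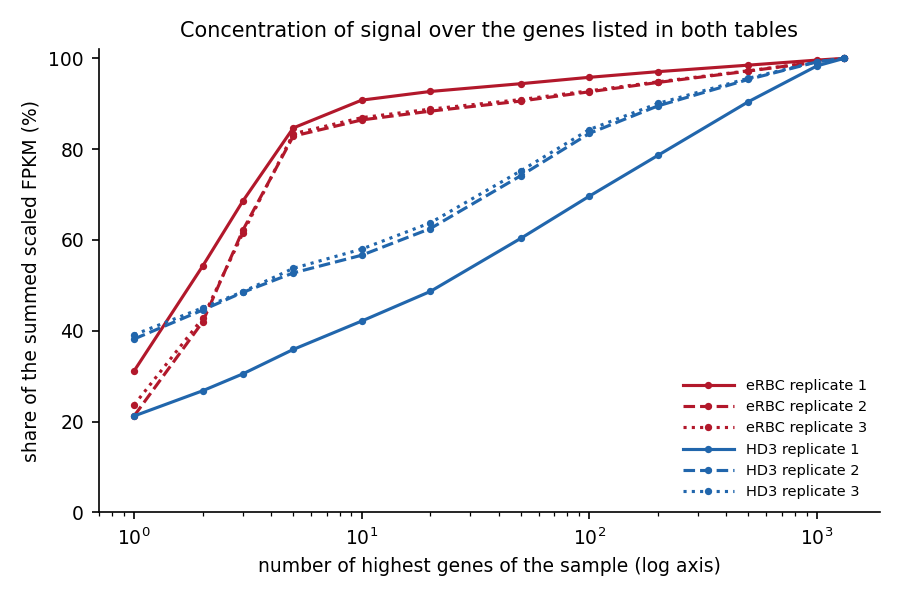
Share of the summed scaled FPKM (%) against the number of highest genes of each sample (log axis), over the 1318 genes in both tables, with a line per replicate, eRBC in red and HD3 in blue. At 5 genes the eRBC lines stand at 82.9% to 84.7% and the HD3 lines at 35.9% to 53.7%, where HD3 replicate 1 is the lowest.

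Of the 10 genes with the highest means in each cell type, 4 were shared. Of the 10 highest of eRBC, 4 were among the 12 higher genes, 5 were called lower per cell, and 1 was not listed in HD3. Of the 10 highest of HD3, 9 were called lower in eRBC and 1 was not listed there. A gene of 554 bp, ranked 8 in HD3, was at 5.21, 7.48 and 6.52 in eRBC and at 309, 917 and 915 in HD3. Among the 100 highest genes of each cell type, 50 were shared, which is 50% of each list.

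Among the shared genes, the strongest decreases on this scale were in genes that HD3 cells held at a high level. A shared gene has an eRBC mean of at least 0.3, so it could be far lower only where it was high in HD3. A few genes missing from the eRBC list had larger bounds still, up to 1747-fold, while the median bound of the missing genes was 7.26-fold. ENSGALG00000000707, of 1037 bp, was at 0.702, 0.654 and 0.535 in eRBC replicates 1 to 3, against 482, 188 and 201 in HD3 replicates 1 to 3. HD3 replicate 1 was the highest, and no eRBC value came near any HD3 value. The log2 fold change was -7.34 (SE 0.384, limma adjusted p = 7.50e-07), and the mean was 460-fold lower in eRBC on the scaled values. ENSGALG00000002377, of 2521 bp, was at 0.349, 0.436 and 0.375 in eRBC, against 178, 238 and 245 in HD3. Its HD3 replicates lay closer together, and the eRBC values sat just above the cutoff of the list. Its log2 fold change was -7.31 (SE 0.223, limma adjusted p = 4.08e-07), a mean 570-fold lower in eRBC. ENSGALG00000000707 ranked 571 in eRBC and 42 in HD3, and ENSGALG00000002377 ranked 992 in eRBC and 54 in HD3.

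Across the 1268 genes the log2 fold changes had a median of -2.66, with 5% of genes below -5.39 and 5% above -0.87. A log2 fold change of -3 or lower was found in 482 of the lower genes and one of -5 or lower in 99. These values depend on the pseudocount of 1, which is above most eRBC levels. With a pseudocount of 0.1 the median was -3.76, and 911 and 238 genes passed the same limits, while with 0.3 it was -3.38, with 787 and 158 genes. The 4 genes given by ID passed the threshold in the same direction in all 15 fits of this comparison, the fits on rescaled samples included. Their limma adjusted p ranged up to 8.75e-05 over these fits.

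**Figure D3:**
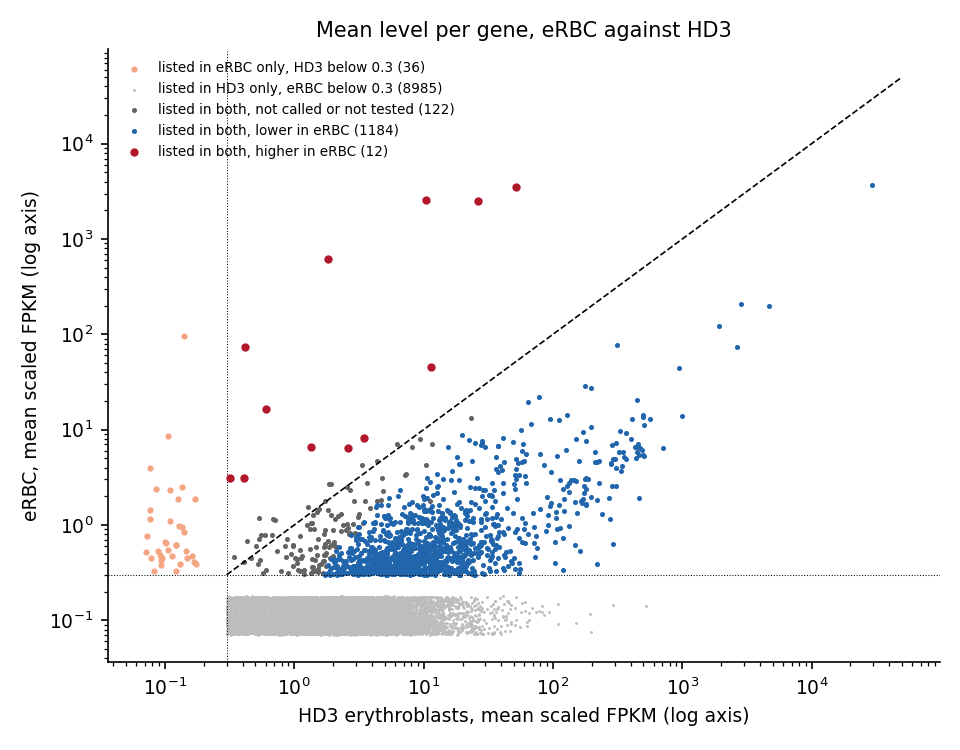
Mean scaled FPKM per gene in eRBC against HD3 (both axes log), with the dashed line at equal levels and dotted lines at the cutoff of 0.3. Genes listed in 1 table lie in a strip below the other table's cutoff, where their position has no meaning; 12 red points lie above the equal line and the 1184 blue ones below it.

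Because nearly every shared gene was lower per cell, the comparison was repeated on values divided by the median gene of each sample, which the cell-number factor does not touch. The median of the 1318 shared genes was 0.543 ± 0.0841 scaled FPKM in eRBC and 8.77 ± 0.713 in HD3 (SD, n = 3 each), 16.2-fold lower in eRBC. All 3 eRBC medians were below all 3 HD3 medians, with a two-sided exact permutation p of 0.1, the smallest possible. These medians include the cell-number factor, which exchanging samples cannot test. Lower bounds of the factor, recovered from the values, were 0.0103 to 0.0111 in the eRBC libraries and 0.171 in the HD3 libraries. How much of the difference in medians lies in the factor was not tested. Relative to the median gene of each sample, limma called 303 genes higher in eRBC and 274 lower, which are 23.0% and 20.8% of the 1318, or 43.8% in either direction. The split lies near even by construction, since the median gene is set to the same place in each sample. The values of the 2 cell types did not overlap for 299 of the 303 and 272 of the 274, again counted only among genes called on these same values.

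The 2 measures gave the genes different places. All 12 genes higher per cell were also higher relative to the median gene. Their direction was set in advance, since the median gene by which the values were divided was itself lower in eRBC. Of the 1184 genes lower per cell, 274 were lower relative to the median gene as well, 740 were not called and 170 were higher. These 170 fell less than the median gene did. Without both libraries numbered 1, 324 genes were higher and 275 lower relative to the median gene. Set against the summed signal of the shared genes in place of the median gene, 73 genes were higher in eRBC and 757 lower, so the split depends on which of the 2 the samples are set to.

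**Figure D4:**
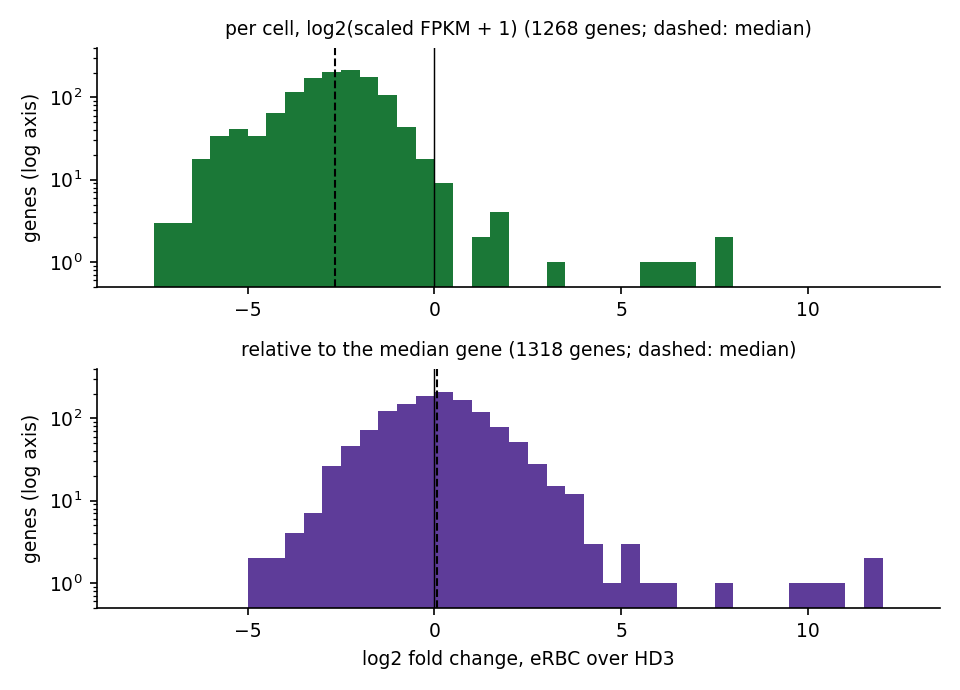
Number of genes (log axis) by log2 fold change of eRBC over HD3, per cell (upper panel, 1268 genes) and relative to the median gene of each sample (lower panel, 1318 genes), with the dashed line at the median. Per cell the median is -2.66 with a few genes far to the right; relative to the median gene the bulk is centred near 0 and the same few genes stay apart.

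The genes higher relative to the median gene held 64.9% ± 7.02 of the shared-gene sum in eRBC and 2.88% ± 1.32 in HD3 (SD, n = 3 each). Most of the eRBC share was that of the 12 genes higher per cell, all of them in this set. Those 12 alone held 61.2% ± 6.24 in eRBC and 0.140% ± 0.0321 in HD3 (SD, n = 3 each). The genes lower relative to the median gene held 2.67% ± 0.659 in eRBC and 33.3% ± 3.65 in HD3. Both sets were called on these same values, so the direction of these shares largely follows from the calls. The same holds for the medians of the lower genes, at 0.523 scaled FPKM in eRBC and 33.4 in HD3. The higher genes had medians of 0.858 in eRBC and 2.96 in HD3. Genes can enter the eRBC list only above 0.3, which is 0.553 times the median gene in eRBC and 0.0342 times in HD3. Of the shared genes, 55.7% had an eRBC mean under 0.6, close to that cutoff. How far a shared gene can lie below the median gene is thus limited in eRBC, and the lower genes are counted only among those that stayed above it. Outside the list this limit leaves no value.

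The relative changes at the top were the same genes as per cell. The division moves all genes of a sample alike, so apart from the pseudocount their order is largely kept by construction. ENSGALG00000028273 was at 1756, 868 and 977 times the median gene in eRBC replicates 1 to 3, against 0.175, 0.223 and 0.234 times in HD3 replicates 1 to 3. Its relative log2 fold change was 11.85 (SE 0.359, limma adjusted p = 7.82e-07). ENSGALG00000047152 differed by a relative log2 fold change of 11.85 (SE 0.397, limma adjusted p = 1.07e-06). At the other end ENSGALG00000002377 was at 0.781, 0.720 and 0.651 times the median gene in eRBC, against 18.6, 28.1 and 29.7 times in HD3. Its relative log2 fold change was -4.94 (SE 0.256, limma adjusted p = 8.80e-06). A relative log2 fold change of 5 or more was found in 11 genes. That of ENSGALG00000002377 passed -5 under other settings, at -5.06 with a pseudocount of 0.03 and -5.15 without HD3 replicate 1.

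The genes with the highest level in HD3 were usually still listed in eRBC, and those with a low level rarely were. The eRBC table listed 9 of the 10 highest HD3 genes, 86 of the next 90 and 63.0% of the next 200. It listed 45.0% of the 700 genes after these, 27.5% of the next 1000, and 1.70% of the 3303 genes at the low end. Among the genes that were listed, the ratio of the means moved the other way, except in the highest class. The 9 listed genes of the 10 highest were lower in eRBC by a median of 23.4-fold. The 86 listed genes of the next 90 were lower by 65.0-fold, those in the class of 1000 genes by 18.5-fold, and those at the low end by 1.46-fold. The cutoff fixes part of this, since a gene that is low in HD3 can be listed in eRBC only if it fell little.

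**Figure D5:**
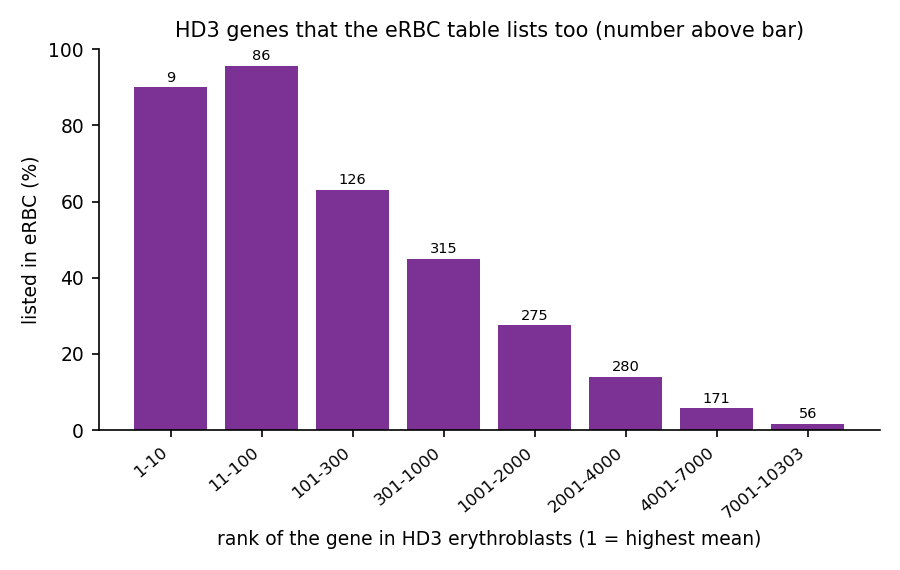
Share of HD3 genes that the eRBC table lists too (%, bars from 0), by rank of the gene in HD3 erythroblasts, with the number of such genes above each bar. The share is 95.6% in the second class and 1.70% in the last.

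The 8985 genes in the HD3 table alone summed to 35807 ± 3282 scaled FPKM in HD3 (SD, n = 3). The genes in both tables accordingly held 68.9% of the HD3 sum, at 57.8%, 73.9% and 74.9% in replicates 1 to 3, and 99.4%, 98.9% and 98.9% of the eRBC sum. With a mean below 0.3 in eRBC, 7818 of the 8985 genes were at least 2-fold lower there, 3463 at least 10-fold and 79 at least 100-fold. This is a bound and no test. A single eRBC replicate of an unlisted gene could reach 0.9 at most, and in 6170 genes every HD3 replicate was at or above that, so the samples could not overlap. Relative to the median gene the bound says less. It placed 681 of the 8985 genes at least 2-fold lower in eRBC, while 6955 were at or under the place the cutoff holds in eRBC, so their relative direction could not be told.

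Of the 100 highest HD3 genes, 5 were absent from the eRBC list. The highest of them, a gene of 1833 bp that ranked 10 in HD3, was at 328, 629 and 615 in HD3 replicates 1 to 3. It was at least 1747-fold lower in eRBC, against the cutoff of 0.3 for the mean of the group. The next, of 1520 bp, was at 261, 296 and 324 in HD3 and at least 979-fold lower in eRBC. In primary fibroblasts, cultured in the same medium and sera as HD3, the first gene was at 1920, 1485 and 1615 scaled FPKM, above all HD3 samples. The second was at 261, 1071 and 266 there, so a single fibroblast library stood above the HD3 values.

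Some genes missing from eRBC were present in adult red blood cells. Of the 8985 genes in the HD3 table alone, 292 (3.25%) were listed in red blood cells of adult hens aged 28 to 38 weeks, 42 of them at a mean of 1 or more. A gene of 3331 bp was at 103, 236 and 237 in HD3 and at 3.98, 1.66 and 2.25 in adult cells, and its mean in eRBC was below 0.3. A gene of 743 bp was at 85.6, 116 and 130 in HD3 and at 2.31, 3.05 and 2.40 in adult cells, again with a mean below 0.3 in eRBC. Of the 1318 shared genes, 468 (35.5%) were listed in adult cells, as were 8 of the 12 genes higher in eRBC. ENSGALG00000047152 was at 122, 68.8 and 68.8 in adult cells, and ENSGALG00000028273 was not listed there. In fibroblasts ENSGALG00000047152 was at 58.0, 43.5 and 40.9 and ENSGALG00000028273 at 10.3, 7.88 and 7.61, all above HD3 and far below eRBC.

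The 36 genes in the eRBC table alone added little to the eRBC sum, at 138 ± 23.5 scaled FPKM (SD, n = 3). Most of that was a single gene of 540 bp, at 77.4, 108 and 105 in eRBC replicates 1 to 3. It ranked 9 in eRBC and was at least 323-fold higher there than in HD3, and it was not listed in adult red blood cells. The next was a gene of 2556 bp, at 5.98, 10.9 and 9.11 in eRBC and at least 28.9-fold higher there. Of the 36 genes, 19 were at least 2-fold higher in eRBC than the HD3 cutoff allows, and in 9 every eRBC replicate reached 0.9. Relative to the median gene all 36 were at least 2-fold higher, as the HD3 cutoff lies far below the HD3 median gene. Adult red blood cells listed 13 of the 36 and fibroblasts 17, while 9 stood in neither table.

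Changes varied with the length of the gene. Per cell, the median log2 fold change was -3.53 for genes over 200 and up to 500 bp, -3.17 for those up to 1000 bp and -2.22 for those over 4000 bp. Relative to the median gene the medians were -0.27, -0.43 and 0.31 in the same classes. Of the shared genes over 200 and up to 500 bp, 10.9% were called higher and 34.5% lower relative to the median gene, while of those over 4000 bp 29.6% were higher and 12.8% lower. Level moved with length here. Over 200 and up to 500 bp the median gene was at 0.953 scaled FPKM in eRBC and 22.0 in HD3, and over 4000 bp it was at 0.486 in eRBC and 6.31 in HD3. Whether length or level goes with the change was not tested. The 67 genes of up to 200 bp did not follow the trend, with a median relative log2 fold change of 0.73. Of the 12 genes higher per cell, 6 were shorter than 1000 bp, against 273 of the 1318 shared genes.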

How the data were processed

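The authors deposited a table per cell type of FPKM values scaled to cell number, 3 replicates each and a mean of at least 0.3. Per the submitters' processing notes STAR 2.7.2b, featureCounts and build GRCg6a were used; the scaling factor is not given in the sources used here. Tables were joined on Ensembl ID. The RefSeq table used held 25635 genes and 0 Ensembl IDs, so gene lists and markers were not applied, and no sequence is shown. Reads and lengths were recovered from the steps of the values (tolerance 0.02 reads): 100% of eRBC and HD3 values were whole, and 13796 of 13889 genes gave a length. No per-sample column was left unmatched.

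Differences (eRBC over HD3) were tested with limma 3.58.1 in R 4.3.3 on log2(scaled FPKM + 1), and relative to the median gene with a pseudocount of 0.1, with adjustment over all genes tested; scripts were tested on simulated data. Sums were compared by exact permutation tests (scipy 1.17.1). Named genes are the 2 largest changes in each direction among those past the thresholds without overlap. The members and lists were chosen with earlier results of these data known. Recovered read numbers depend on the recovered lengths, and the samples were treated as unpaired.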

Additional observations from a re-analysis of the deposited data

How the results depend on the processing

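Per cell, 1196 genes were called. With equal sums 753 were called (47 higher, 706 lower, median log2 fold change -1.17). With equal medians 490 were called (245 higher, 245 lower, median 0.061). That median lies near 0 and that split near even by construction, so the turned sign is not read as a reversal. With missing genes set to 0.3, 6455 of 6554 were called (98.5%; 20 higher, 6435 lower, median -1.997); this is a bound and no test, since the filled values have no spread and most added genes passed the filter through HD3. The median was -3.76 with a pseudocount of 0.1 and -3.38 with 0.3. Relative to the sum in place of the median gene, 73 genes were higher and 757 lower. Of genes in 1 table, 9 in eRBC were at least 4-fold higher; against a bound of 0.9, 8 in eRBC and 5095 in HD3 were at least 2-fold apart. Without the 10 highest genes of each sample, which differ between samples, the log2 ratio of the sums was -4.41. It is thus not a ratio over the same genes. The shares in shared genes were then 97.9% in eRBC and 51.9% in HD3. The causes were not tested beyond these constructions. Deviations from the group means correlated weakly between samples of the same number (-0.107, 0.0617 and -0.240), on the log2(scaled FPKM + 1) scale. The samples were treated as unpaired, and whether the replicate numbers mark a shared batch was not tested. A replicate block gave 1190 called genes per cell and 552 relative to the median gene. The voom test on recovered reads called 621 relative to the median gene.

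Leaving out 1 replicate at a time, 1162 to 1195 genes were called per cell (10 to 12 higher, 1150 to 1183 lower) with a median of -2.68 to -2.58, and 540 to 599 relative to the median gene (286 to 318 higher, 238 to 281 lower). Genes in 1 table at least 2-fold apart numbered 16 to 21 in eRBC and 7629 to 7845 in HD3. The log2 ratio of the sums was -2.69 to -2.25, and the shares in shared genes 98.9% to 99.2% in eRBC and 65.8% to 74.4% in HD3. Genes with a group mean below the cutoff of 0.3 have no values here, so they have bounds only. Single replicates of listed genes could lie below 0.3, and these values were used.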
